A study of Macaca mulatta with 5 samples.

Results

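Among the long noncoding RNAs (lncRNAs) listed for embryonic stem cells of the rhesus monkey (Macaca mulatta; rESC in the labels) and for cells labelled R_NSCP1, 171 of mid length were listed at a much higher level in R_NSCP1 than in rESC. They were chosen by the measured values themselves: from the 1404 listed transcripts, those on chromosomes 1 to 20 with a genomic span of at least 1 kb and under 50 kb, listed once at their position, with an FPKM (fragments per kilobase of transcript, scaled to library size) of at least 2 in R_NSCP1 and an rESC FPKM of at most 0.25 times that value. Transcripts between 164.6 and 165.0 Mb of chromosome 7 and between 106.5 and 106.9 Mb of chromosome 2 were left out. Of the 959 transcripts that met the conditions on position and span, called eligible here, the 171 gained lncRNAs made up 17.8%. Because the 2 FPKM values chose them, their levels and differences are a description and were not tested, and nothing is read from that share.

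The series set rESC against R_NSCP1 in work on noncoding RNA, DNA methylation and neural fate. It held 5 samples: 1 lncRNA library and 1 library of immunoprecipitated methylated DNA (MeDIP) for each cell type, and a mixed input that was not analysed here. The labels give no genotype, sex, age, passage or treatment for either cell type, give the cell type of every sample as embryonic stem cell, and do not spell out R_NSCP1. With 1 library per cell type and assay there were no replicates, so every value below compares 2 libraries and no test between the cell types was possible. The table gives FPKM without read counts, so the depth of the lncRNA libraries is unknown. The table carries positions and strands but no gene names, so the label of either cell type could not be checked against marker genes and the lncRNAs are named by position. No source used here names the genome build, and no sequence of the lncRNAs or their promoters could be read.

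lncRNAs are transcripts that are not translated into protein. Many are spliced, many are present at low levels, and they are known as a class for being made in few cell types or stages, including in the developing nervous system. Some act on chromatin or on genes close to the place where they are made, and others act elsewhere in the nucleus or in the cytoplasm. One strand of a place can give several transcript forms that share an end or an exon, and a program that assigns reads to such forms divides the reads among them.

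Most of the gained lncRNAs had a low FPKM in R_NSCP1 as well, as did most eligible transcripts. Their R_NSCP1 FPKM ran from 2.03 to 922.8 with a median of 3.52 and quartiles of 2.75 and 5.09. Over all eligible transcripts the median was 2.31 and the upper quartile 3.85, and the floor of 2 sets the lower end of the gained lncRNAs. Of the 171, 126 stood under an FPKM of 5, 28 between 5 and 10, and 17 at 10 or more, where 59 of all eligible transcripts stood. Their rESC FPKM ran from 0 to 6.50 with a median of 0.0829 and an upper quartile of 0.441. On the log2(FPKM + 0.1) scale the median difference, R_NSCP1 minus rESC, was 4.51, beside 0.06 over the 959 eligible transcripts and 0.07 over all 1404. This scale understates the difference of weakly expressed transcripts. The gained lncRNAs together held 37.8% of the FPKM summed over the eligible transcripts in R_NSCP1 and 1.06% in rESC. One transcript, the highest, accounted for 48.5% of the R_NSCP1 sum of the gained lncRNAs, and without it the gained lncRNAs held 23.8% of the eligible R_NSCP1 sum.

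**Figure D1:**
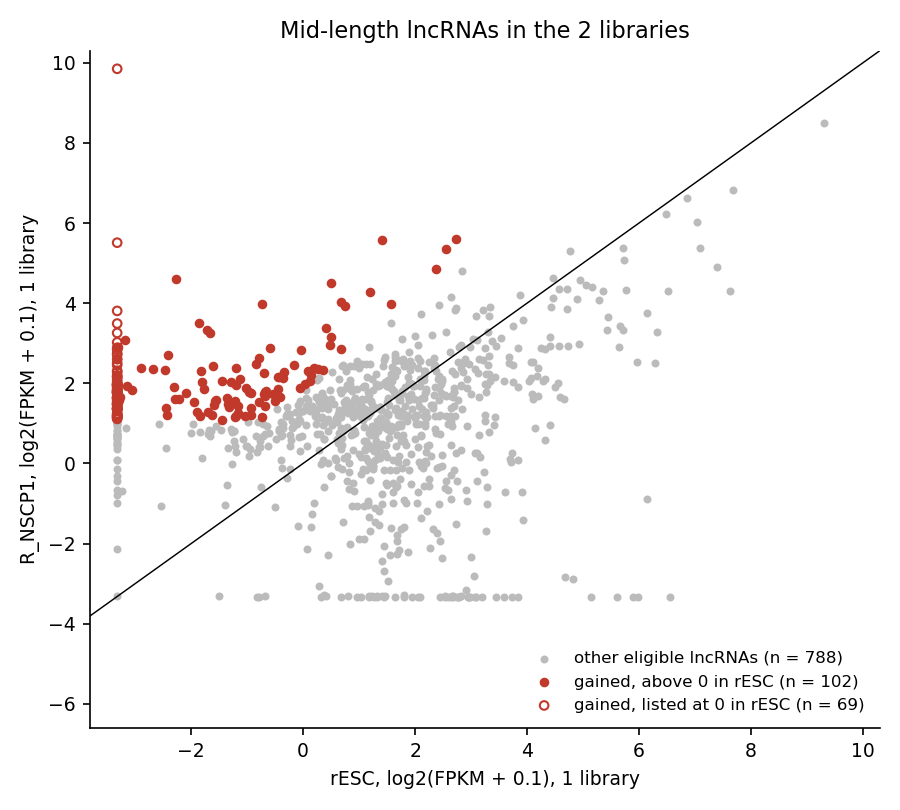
Level of the 959 eligible lncRNAs in rESC (x axis) and R_NSCP1 (y axis), both as log2(FPKM + 0.1), with 1 library each; each point is a transcript and the line marks equal values. The gained lncRNAs (red, filled where above 0 in rESC and open where listed at 0) fill the upper left because they were chosen by these values, and the point at the top left is the lncRNA of chromosome 4 at an FPKM of 922.8.

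The highest gained lncRNA lay at chr4:67718180-67719576 (minus strand), with an FPKM of 922.8 in R_NSCP1, and was listed at 0 in rESC. It ranked 1 among the 959 eligible transcripts in R_NSCP1, overlapped no other listed transcript, and had no MeDIP peak of either library in its span or within 1000 bp of its start. The next gained lncRNA reached 48.7, so this transcript stands far above the others. The second lay at chr10:71070666-71085680 (plus strand) and stood at 6.50 in rESC against 48.7 in R_NSCP1, a ratio of 7.49. A second form at the same place, from 71070405 to 71085680, stood at 1.31 and 22.7, a ratio of 17.4, and also belonged to the gained lncRNAs. Both forms were thus higher in R_NSCP1, and the form that was more abundant in R_NSCP1 was also the more abundant in rESC.

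Most of the other highest gained lncRNAs were measurable in rESC too. A lncRNA at chr2:13196095-13215355 (plus strand) stood at 2.56 in rESC against 47.3 in R_NSCP1, a ratio of 18.5. On chromosome 1 a plus-strand lncRNA from 172181008 to 172218215, one of the 5 longest, was listed at 0 in rESC and stood at 45.4 in R_NSCP1. On chromosome 11 a plus-strand lncRNA from 99204947 to 99228589 stood at 5.79 and 40.8. Its neighbour on the minus strand, from 99248133 to 99251719, stood at 5.10 and 29.0. The 2 chromosome 11 lncRNAs face each other with their 3′ ends, 19.5 kb apart, and their ratios were 7.04 and 5.68.

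The remaining members of the highest 10 lay between an FPKM of 16 and 25 in R_NSCP1. A plus-strand lncRNA at chr8:68783962-68789729 stood at 0.107 in rESC against 24.2 in R_NSCP1. On the plus strand of chromosome 14, the transcript from 124893711 to 124895807 stood at 2.20 and 19.2, a ratio of 8.73. On the minus strand of chromosome 4, the transcript from 68809324 to 68815965 stood at 1.51 and 16.4, a ratio of 10.9, and a second gained lncRNA of the same strand, from 68785253 to 68794047, stood at 1.22 and 10.2. Of the 10 highest gained lncRNAs, 2 were listed at 0 in rESC.

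**Figure D2:**
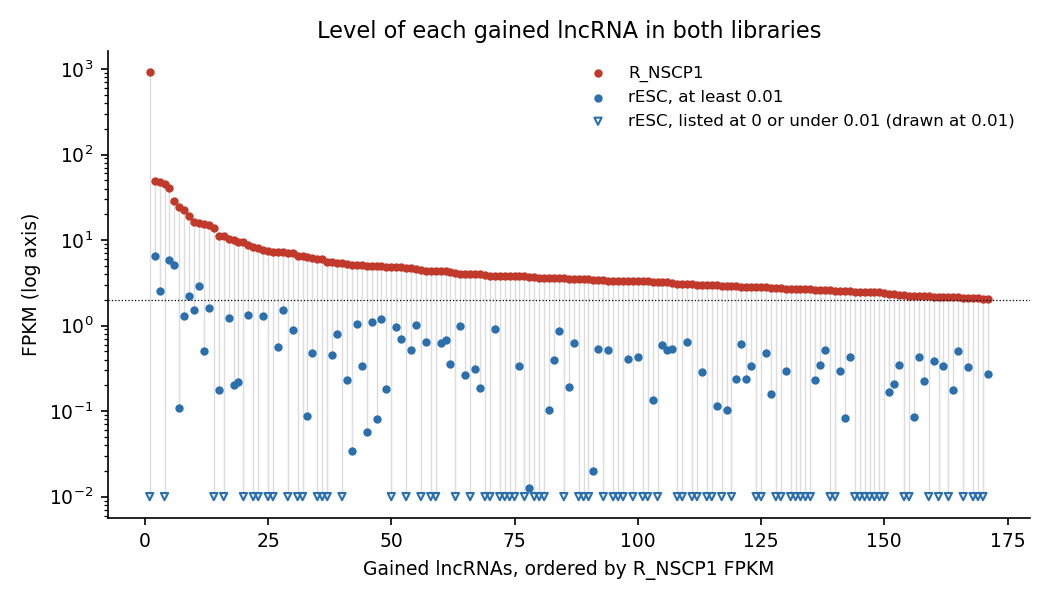
FPKM of each of the 171 gained lncRNAs in R_NSCP1 (red) and rESC (blue) on a log axis, ordered by the R_NSCP1 value; grey lines join the values of a transcript, triangles at 0.01 stand for rESC values listed at 0 or under 0.01, and the dotted line marks the R_NSCP1 floor of 2. The R_NSCP1 values drop from 922.8 to 48.7 between the first and second lncRNA and 126 lie under 5.

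The rESC values of the gained lncRNAs ran from listed at 0 to several FPKM. Of the gained lncRNAs, 69 (40.4%) were listed at 0 in rESC, against 29 of the 788 other eligible transcripts (3.68%); the rule favours such transcripts. A further 11 carried rESC values above 0 but under 0.01, 8 values from 0.01 to 0.1, 66 values from 0.1 to 1, and 17 an FPKM of 1 or more. The 69 listed at 0 had a median R_NSCP1 FPKM of 3.35, against 3.69 for the 102 above 0. The 17 with an rESC FPKM of 1 or more had a median of 15.1 in R_NSCP1, which the ratio in the rule requires to be at least 4 times the rESC value. At 8-fold or more, with those listed at 0 counted in, 131 of the 171 remained, at 16-fold 104 and at 64-fold 86.

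The largest ratios above 0 belonged to transcripts with rESC values close to 0, and such ratios carry little meaning. The 8 highest all had rESC values under 0.001. A minus-strand lncRNA at chr6:155705408-155709210 stood at 8.65e-06 in rESC against 3.56 in R_NSCP1, and a plus-strand lncRNA at chr11:123511451-123513883 at 0.0001372 and 5.94. A minus-strand lncRNA at chr7:53439837-53441334 stood at 0.000153 and 2.39, and one at chr2:33526209-33543015 at 5.62e-05 and 2.60. These 4 overlapped no other listed transcript. The other 4 lay at chr13:6904389-6906626 (3.67 in R_NSCP1), at chr9:10986449-11020640 (2.65), at chr7:50686574-50692157 (7.38) and at chr6:77837367-77886068 (2.81), each overlapping other listed transcripts of the strand. Of the 11 gained lncRNAs above 0 and under 0.01 in rESC, 6 had such an overlap.

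With an rESC FPKM of at least 0.1, a limit set after the data were seen, the highest ratio was that of the chromosome 8 lncRNA given above, 226. A plus-strand lncRNA at chr3:161322154-161328159 stood at 0.176 in rESC against 11.2 in R_NSCP1, a ratio of 63.6. A minus-strand lncRNA at chr14:123052890-123065846 stood at 0.204 and 9.97, a ratio of 49.0. On chromosome 9 the plus-strand lncRNA from 53240563 to 53243606 stood at 0.217 and 9.48, a ratio of 43.6. At chr6:85350303-85366488 (minus strand) the levels were 0.103 and 3.62, a ratio of 35.1. On chromosome 1 the minus-strand lncRNA from 135509288 to 135524027 stood at 0.501 and 15.6, a ratio of 31.1. The next ratios were 28.1 at chr5:16999826-17001202 (plus strand, 0.104 and 2.93) and 26.9 at chr2:142342122-142347915 (minus strand, 0.182 and 4.89). The R_NSCP1 levels of these 8 ran from 2.93, under the median of the gained lncRNAs, to 24.2.

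At the limits of the rule the values ran on without a gap. Just inside the ratio limit, a plus-strand lncRNA at chr5:147649404-147668311 stood at 0.982 in rESC against 4.04 in R_NSCP1, and one at chr16:3962532-3982096 (minus strand) at 0.859 and 3.56. Just outside it, minus-strand lncRNAs stood at 2.86 and 11.3 at chr3:21119841-21123685 and at 7.04 and 27.8 at chr7:81241523-81243661. Just inside the floor, a plus-strand lncRNA at chr3:123229842-123233735 stood at 0.268 and 2.03. Just outside it, a plus-strand lncRNA at chr8:65479669-65482778 was listed at 0 in rESC and stood at 1.996 in R_NSCP1.

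The authors' deposited table called 117 of the 171 gained lncRNAs up in R_NSCP1, where it called 224 of all 1404 transcripts up (16.0%); these calls compare the same 2 libraries as the rule, so the count is a description. All 69 gained lncRNAs listed at 0 in rESC were called up in the authors' deposited table, and 48 of the 102 above 0. The 54 left uncalled in the authors' deposited table had R_NSCP1 values of at most 5.41 and rESC values of at least 0.0829. Among them was a minus-strand lncRNA at chr20:12082936-12105692, at 0.798 in rESC against 5.41 in R_NSCP1. In the other direction, 26 eligible transcripts called up in the authors' deposited table were not among the gained lncRNAs, and 21 of these stood under the R_NSCP1 floor of 2.

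Whether a gained lncRNA reflected a whole place or only a form of it was asked from transcripts that overlap on the same strand. Of the 171, 138 overlapped no other listed transcript of their strand, and 33 (19.3%) did, against 39.8% of 171 eligible lncRNAs lost from rESC to R_NSCP1 (the same rule with the libraries swapped), 19.5% of 190 steady ones (at least 2 in both libraries and within 2-fold) and 23.7% of all eligible transcripts. The 33 lay at 28 places. At 4 places the overlapping transcripts were all gained lncRNAs, 9 in number. At the other 24 places the gained lncRNAs stood beside 34 transcripts in all outside the gained set. Of these 34, 18 were higher in rESC than in R_NSCP1, while 11 were at least 4-fold higher in R_NSCP1 and lay outside the set through another condition of the rule. The 788 eligible transcripts outside the gained set also tended to be higher in rESC, with a median log2 difference of -0.45. Nothing is therefore read from the 18. Positions and directions of the forms come from the table, and no source used here says how reads were divided among them.

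With FPKM summed over the overlapping transcripts of the strand, a step added after the data were seen, 10 of the 24 places were still at least 4-fold higher in R_NSCP1, 8 were higher by less and 6 were lower. The median log2 difference of the 24 places was 4.80 for the gained lncRNA alone and 1.09 for the sum. The rule itself fixes a sum at least 4-fold higher for the 138 lncRNAs without overlap and the 9 at places holding only gained lncRNAs. Counting these, 157 of the 171 gained lncRNAs stood at places whose sum was at least 4-fold higher, and 14 did not.

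Several of these 14 had a partner form with nearly the same ends. On chromosome 7 the gained lncRNA from 50686574 to 50692157 stood at 0.000931 in rESC against 7.38 in R_NSCP1, while a form ending at 50692159 stood at 7.77 and 7.45, so that the sums were 7.77 and 14.8. On chromosome 20 the gained lncRNA from 87116939 to 87120793 stood at 0 and 2.104, and a form ending at 87120799 at 2.40 and 5.38e-05, with sums of 2.40 and 2.104. On chromosome 2 the gained lncRNA from 97492529 to 97499666 stood at 0 and 2.24, and a form starting at 97492573 at 6.20 and 0.000193, with sums of 6.20 and 2.24. At these last 2 places the forms were listed in opposite order in the 2 libraries and the place as a whole was not higher in R_NSCP1.

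More abundant partners were found as well. On chromosome 5 the gained lncRNA from 10770288 to 10775174 stood at 0.00976 and 8.40 and a form starting at 10770271 at 23.3 and 3.92. Its sums were 23.3 and 12.3, a log2 difference of -0.92, against 6.27 for the gained lncRNA alone. On chromosome 15 the gained lncRNA from 107149627 to 107153716 stood at 0 and 3.26 beside 2 more abundant forms, whose values were 15.1 and 11.9 for the form ending at 107153999 and 41.0 and 19.5 for the form ending at 107154004. The place as a whole stood at 56.1 in rESC against 34.6 in R_NSCP1. Here the gained lncRNA held 3.26 of the 34.6 in R_NSCP1.

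At other places all forms were higher in R_NSCP1. On chromosome 9 the gained lncRNA from 114827251 to 114839506, at 0 in rESC against 2.73 in R_NSCP1, overlapped 3 longer transcripts, all listed at 0 in rESC and at 3.38, 3.53 and 4.17 in R_NSCP1. The sum over the place was 0 in rESC against 13.8 in R_NSCP1. On the plus strand of the same chromosome, the gained lncRNA from 10986449 to 11020640 overlapped a transcript ending at 11109829 that stood at 0.407 and 14.4, and the place as a whole was higher in R_NSCP1 by a ratio of 41.9. On chromosome 13 the 3 overlapping gained lncRNAs between 6900858 and 6906680 on the minus strand stood at 3.29, 3.67 and 2.23 in R_NSCP1 and at 0, 2.32e-05 and 0.0848 in rESC.

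**Figure D3:**
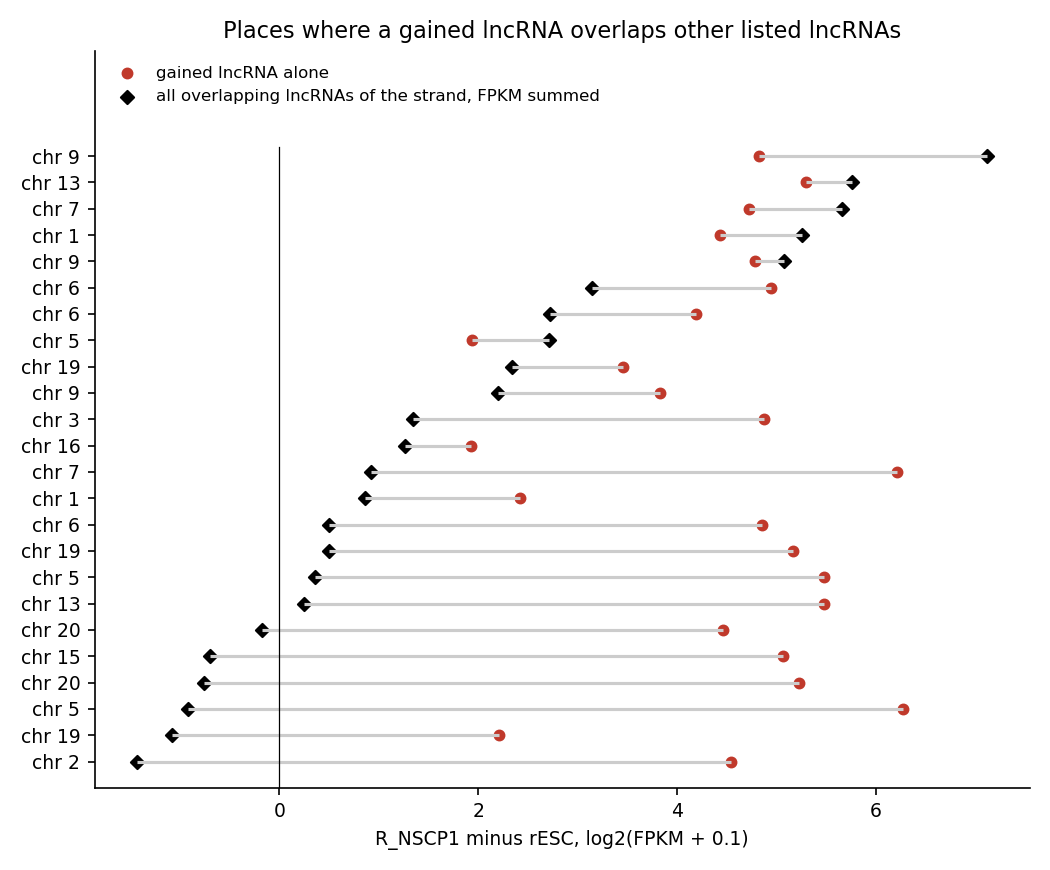
Difference R_NSCP1 minus rESC in log2(FPKM + 0.1) at the 24 places where a gained lncRNA overlapped listed transcripts of its strand that were not gained; red points are the gained lncRNA alone and black diamonds the FPKM summed over the place, with a row per place labelled by chromosome. The red points lie far above 0 because the rule chose them so, and 6 diamonds lie below 0.

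None of the 171 gained lncRNAs overlapped a listed transcript of the opposite strand (0%, with a 95% Wilson interval that reaches 2.2%), where 24 of the 959 eligible transcripts did (2.50%), 6 of the lost lncRNAs and 6 of the steady ones. The difference was not tested, and the intervals of shares here cover counting error only. The absence depends on the limits of the rule. With an R_NSCP1 floor of 1 such overlaps numbered 2 of 214, and with R_NSCP1 at least 2 times rESC 3 of 246. With scaling by summed FPKM there was 1 of 196, and the count stayed at 0 under the other settings tried. The gained lncRNAs lay on the plus strand in 73 cases and on the minus strand in 98, a plus-strand share of 42.7% (35.5% to 50.2%), beside 48.1% of the eligible transcripts, whose share lies inside that interval.

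Gained lncRNAs lay near each other in part. Within 100 kb of another gained lncRNA, on either strand, were 44 of the 171 (25.7%), in 19 pairs and 2 groups of 3. The share was 40.4% for the lost and 15.8% for the steady lncRNAs. Overlapping forms count as neighbours here, so these shares do not compare spacing alone. With overlapping members of a set and strand counted once, the 171 gained lncRNAs made 166 places, the 171 lost 148 and the 190 steady 183. The 2 lncRNAs or more of a group lay on the same strand in 17 of the 21 groups, and in 4 of these 17 they overlapped. On chromosome 1, 3 minus-strand lncRNAs between 6173028 and 6210137 were all listed at 0 in rESC and stood at 3.99, 3.85 and 3.06 in R_NSCP1. On chromosome 13, minus-strand lncRNAs from 104526820 to 104532363 and from 104588171 to 104594241 were listed at 0 in rESC and stood at 7.03 and 3.82. On chromosome 3, plus-strand lncRNAs from 51945963 to 51952125 and from 51957901 to 51962321 were listed at 0 and stood at 4.16 and 3.01. Other same-strand groups differed: neither lncRNA of the pairs at chr4:68785253-68815965 and chr18:46575046-46599002 was listed at 0 in rESC. Same-strand neighbours with like values can be pieces of 1 longer transcript, which the table does not resolve.

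Each of the 4 groups with both strands was a pair. Besides the chromosome 11 pair, a pair on chromosome 14 faced each other with their 3′ ends, 10.9 kb apart: the plus-strand lncRNA from 376253 to 377339 stood at 0.333 in rESC against 3.77 in R_NSCP1 and the minus-strand lncRNA from 388266 to 389836 at 0 and 2.67. The remaining 2 pairs pointed away from each other. On chromosome 7 the minus-strand lncRNA from 91426137 to 91427550 and the plus-strand lncRNA from 91440012 to 91463866, 12.5 kb apart, were listed at 0 in rESC and stood at 2.104 and 3.46 in R_NSCP1. On chromosome 9 the minus-strand lncRNA from 53170761 to 53189887 stood at 0.0802 and 4.93, 50.7 kb from the plus-strand lncRNA at 0.217 and 9.48 given above.

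The nearest eligible transcript that did not overlap lay within 100 kb for 50 of the gained lncRNAs, and it was itself a gained lncRNA for 32 of them and a lost one for 3. Among lost lncRNAs with such a neighbour, it was a lost lncRNA for 31 of 46 and a gained one for 2. Over all eligible transcripts with such a neighbour, 47 of 231 had a gained one (20.3%). On the opposite strand alone, the nearest transcript was gained for 7 of 16 gained lncRNAs and for 15 of 99 eligible transcripts (15.2%). The same FPKM values chose both sides of these pairs, so these counts are descriptions.

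By chromosome, gained lncRNAs made up 7.32% to 53.8% of the eligible transcripts. The highest share, looked up after the values were seen, was on chromosome 18, with 7 of 13 (53.8%, Wilson interval 29.1% to 76.8%), and the lowest on chromosome 16, with 3 of 41 (7.32%, 2.52% to 19.4%). Chromosome 19, the second in number of eligible transcripts, held 6 of 74 (8.11%, 3.77% to 16.6%), and chromosome 14 11 of 39 (28.2%, 16.5% to 43.8%). The chromosome with the highest share was picked from 20, and no test was made. The 7 lncRNAs of chromosome 18 lay at 5 places more than 100 kb apart, the first and second of them only just beyond that distance. Near the start of the chromosome, a plus-strand lncRNA from 2466010 to 2470960 stood at 2.87 in rESC against 15.8 in R_NSCP1. Minus-strand lncRNAs from 2571030 to 2576199 and from 2601337 to 2607799 stood at 0.337 and 5.09 and at 0 and 9.46. Further along, plus-strand lncRNAs from 46575046 to 46578879 and from 46597380 to 46599002 stood at 0.0339 and 5.15 and at 0.0866 and 6.38. The last 2 were minus-strand lncRNAs from 47660605 to 47662027, at 0 and 4.86, and from 70655598 to 70662062, at 0.395 and 3.57.

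**Figure D4:**
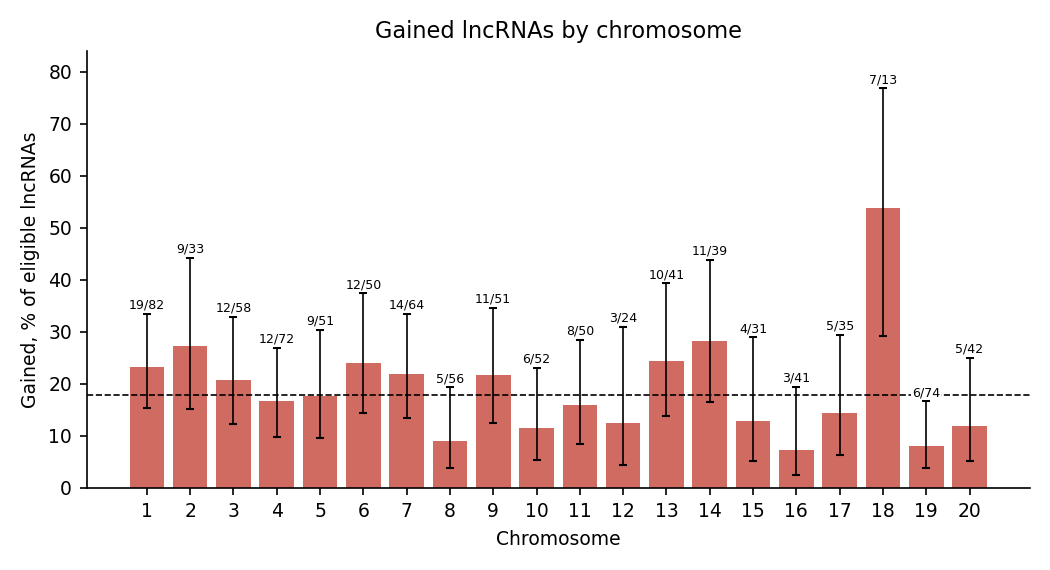
Gained lncRNAs as a percentage of the eligible lncRNAs of each chromosome, with 95% Wilson intervals that cover counting error only; numbers above the bars give gained over eligible, and the dashed line marks the 17.8% over all eligible transcripts. Chromosome 18 stands highest with 7 of 13, and the interval of chromosome 19, with 6 of 74, lies below the line.

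In span the gained lncRNAs lay close to the other eligible transcripts. Their median span, introns included, was 4.43 kb (quartiles 2.08 and 9.18), beside 4.23 kb for the lost, 4.25 kb for the steady and 4.10 kb for all eligible lncRNAs. The share that was gained was 18.9% of eligible transcripts spanning 1 to 2 kb, 14.9% of those of 2 to 5 kb, 19.2% of those of 5 to 10 kb and 20.3% of those of 10 to 50 kb. The 5 longest ran from 36566 to 48702 bp. Besides those of chromosome 6 from 77837367 to 77886068 and chromosome 1 from 172181008 to 172218215, given above, they were a minus-strand lncRNA at chr12:49828585-49876220, at 1.29 in rESC against 7.68 in R_NSCP1, a plus-strand lncRNA at chr6:85073518-85117784, at 0 and 13.9, and a minus-strand lncRNA at chr13:70318829-70355394, at 0 and 4.36. The 5 shortest ran from 1047 to 1143 bp, with R_NSCP1 values of 2.14 to 3.79. Within 5 Mb of a chromosome end, taken from the outermost MeDIP peak, lay 24 of the 171 gained lncRNAs, beside 144 of the 959 eligible transcripts.

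DNA methylation was measured independently of the rule, in the MeDIP libraries. In MeDIP an antibody pulls down sheared methylated DNA, and a peak marks a place where more fragments were recovered than in the surroundings; methylation of a promoter is known to accompany low transcription, while methylation within transcribed bodies is common. The libraries held 8690541 tags in rESC and 9071243 in R_NSCP1, and the authors called 48838 and 83528 peaks, without a control library. Because R_NSCP1 had more peaks over the whole genome, peaks at the gained lncRNAs are set beside those at the other eligible lncRNAs of the same library.

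Few gained lncRNAs had a MeDIP peak at the start. Within 1000 bp of the start, 11 of 171 had an R_NSCP1 peak (6.43%, 3.63% to 11.2%) and 6 an rESC peak (3.51%, 1.62% to 7.44%), beside 8.24% and 4.38% of the eligible transcripts. For 5 lncRNAs both libraries had a peak there, for 6 only R_NSCP1 and for 1 only rESC, which left 159 with none. Over the 959 eligible transcripts the same counts were 31, 48, 11 and 869, so peaks of R_NSCP1 alone were also more frequent there than peaks of rESC alone. The shares of the lost lncRNAs were 7.60% and 2.92% and those of the steady ones 8.95% and 4.74%, and the intervals of the 3 sets overlapped in both libraries. Of the 11 with an R_NSCP1 peak, 9 were listed at 0 in rESC, as were 69 of all 171 gained lncRNAs (40.4%). The rule favours transcripts listed at 0, the count of 11 is small, and a link between the 2 traits was not tested.

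The 5 lncRNAs with a peak of both libraries at the start are given here with their peaks. On chromosome 4 the minus-strand lncRNA from 117616054 to 117617196, at 0 in rESC against 3.79 in R_NSCP1, had an rESC peak from 117617402 to 117617698 and an R_NSCP1 peak from 117617330 to 117617707, with fold enrichments of 7.44 and 9.61 over local background as the authors give them. On the same chromosome the minus-strand lncRNA from 164726318 to 164733774, at 0.00237 and 2.89, had peaks from 164733737 to 164734065 and from 164733713 to 164733988, across its start. On chromosome 9 the lncRNA from 114827251 to 114839506, whose overlapping forms are given above, had peaks directly upstream of its start. They ran from 114839507 to 114839911 in rESC and from 114839525 to 114839828 in R_NSCP1. Both peaks also lay inside the spans of the longer overlapping forms, which start at 114881095 or 114881387 on this minus strand. On chromosome 1 the last of the 3 neighbouring lncRNAs, from 6206754 to 6210137, had peaks from 6209941 to 6210224 and from 6209891 to 6210195. On chromosome 3 the lncRNA from 51945963 to 51952125 had peaks from 51945239 to 51945487 and from 51945233 to 51945532. In each case the peaks of the 2 libraries overlapped.

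The 6 with a start peak in R_NSCP1 only and the 1 in rESC only were spread over 6 chromosomes. The R_NSCP1 peak with the strongest support of these, with a −log10 q of 11.2 from the authors' peak caller, lay at chr14:120301275-120301550, upstream of the minus-strand lncRNA from 120299698 to 120300857, which stood at 0 in rESC against 3.35 in R_NSCP1. Across the start of the lncRNA at chr18:70655598-70662062 lay an R_NSCP1 peak from 70662009 to 70662280. The others lay at the lncRNA at chr14:52836578-52842171, at 0 and 7.30, the lncRNA at chr13:135737156-135739582, at 0 and 3.87, the lncRNA at chr3:51957901-51962321 and the lncRNA at chr4:105854455-105855589, at 0 and 2.47. The single rESC-only peak lay at chr20:12105225-12105473, inside the lncRNA from 12082936 to 12105692 that stood at 0.798 and 5.41.

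In a wider window peaks were sparser around the gained lncRNAs. Within 5 kb of the start, 33 gained lncRNAs had an R_NSCP1 peak (19.3%, 14.1% to 25.9%), against 32.2% (25.6% to 39.5%) of the lost, 35.3% (28.8% to 42.3%) of the steady and 31.9% (29.0% to 34.9%) of all eligible lncRNAs. For rESC peaks the shares were 14.6% (10.1% to 20.7%), 21.6% (16.1% to 28.4%), 23.7% (18.2% to 30.2%) and 21.2% (18.7% to 23.9%). The order was the same in both libraries, although the intervals of the gained and lost lncRNAs overlapped in both. Counting overlapping transcripts of a strand once, the R_NSCP1 shares were 19.9%, 33.1%, 35.0% and 33.1%. The median distance from the start to the nearest R_NSCP1 peak was 11.8 kb for the gained, 9.56 kb for the lost and 8.25 kb for the steady lncRNAs, and to the nearest rESC peak 19.2 kb, 14.7 kb and 13.5 kb. No test of these differences was made, since transcripts are not replicates of a cell type. The sets also differed in their chromosomes, and peaks were not compared within chromosomes. Chromosome 19, for example, held 6 gained, 11 lost and 21 steady lncRNAs among 74 eligible ones. The wider spacing was seen with the peaks of rESC as well as with those of R_NSCP1.

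**Figure D5:**
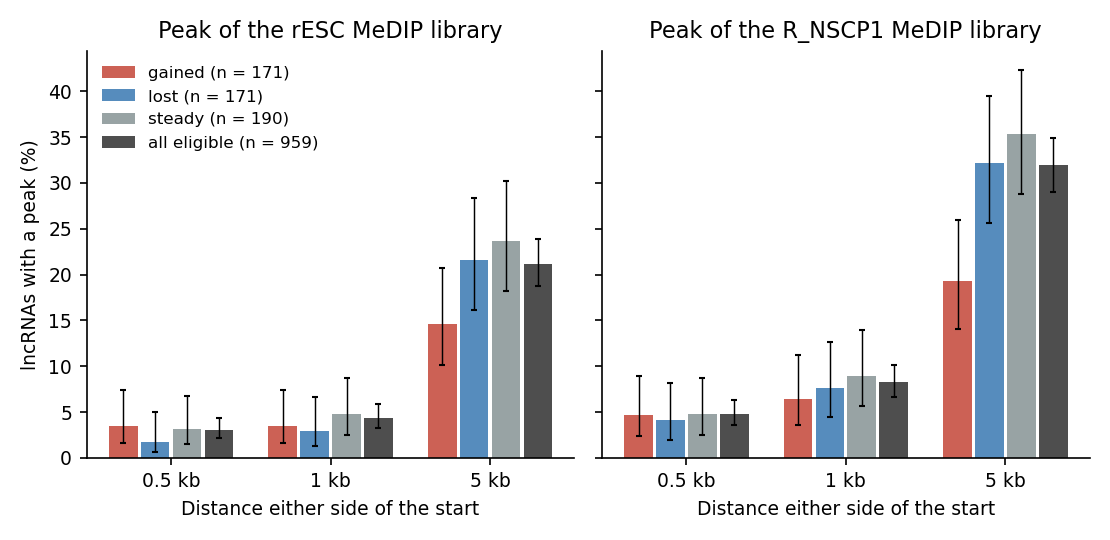
Percentage of gained (red), lost (blue), steady (grey) and all eligible (black) lncRNAs with a MeDIP peak of rESC (left) or R_NSCP1 (right) within 0.5, 1 or 5 kb either side of the start; bars start at 0 and lines are 95% Wilson intervals that cover counting error only. At 5 kb the gained lncRNAs stand lowest in both libraries, at 14.6% and 19.3%, while at 0.5 and 1 kb the intervals overlap.

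Inside the spans, 34 gained lncRNAs held an R_NSCP1 peak (19.9%) and 16 an rESC peak (9.36%), beside 20.8% and 11.9% of the eligible transcripts. Per 100 kb of span the gained lncRNAs held 2.94 R_NSCP1 and 1.22 rESC peaks, the lost 3.38 and 1.85, the steady 3.46 and 2.19, and all eligible transcripts 3.46 and 1.82. Of the 40 distinct R_NSCP1 peaks in gained lncRNAs, 29 had no overlapping rESC peak (72.5%, 57.2% to 83.9%), beside 141 of the 220 in eligible transcripts (64.1%) and 60.3% of all R_NSCP1 peaks. Of the 17 rESC peaks 6 had no R_NSCP1 peak (35.3%), beside 43 of 118 in eligible transcripts (36.4%) and 32.2% of all rESC peaks. For both libraries the share over all peaks lay inside the interval of the gained lncRNAs, which for rESC was 17.3% to 58.7%. Longer spans held peaks more often: 20 of 41 gained lncRNAs of 10 to 50 kb held an R_NSCP1 peak (48.8%, beside 44.1% of eligible transcripts of that span) and 2 of 42 of those of 1 to 2 kb (4.76%, beside 7.21%). The strongest R_NSCP1 peak inside a gained lncRNA, with a fold enrichment of 13.6 by the authors' peak caller, lay at chr2:33541239-33541619 in the minus-strand lncRNA from 33526209 to 33543015, and an rESC peak from 33541260 to 33541601 overlapped it. Of the 10 highest gained lncRNAs, the 2 forms on chromosome 10 shared an R_NSCP1 peak near their 3′ ends, from 71085237 to 71085523, with no rESC peak. The lncRNA at chr11:99204947-99228589 held an rESC peak from 99214663 to 99215001 with no R_NSCP1 peak. The other 7 held no peak of either library.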

How the data were processed

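Per the labels' protocols, ribosomal RNA was removed from total RNA and the libraries kept the strand; the submitters' processing notes name TopHat2 2.0.11, BWA 0.7.7 and MACS2. The genome build, the assembly and quantification of transcripts and the call of noncoding are not given in the sources used here. For each transcript the authors deposited FPKM values and a p-value; the test behind the p-value is not stated, and the rule did not use it. Per the file headers, MACS 2.1.0.20150731 called peaks on each MeDIP library separately without a control, at a q cutoff of 0.01. The deposited peak lists give a pileup signal, a fold enrichment over local background, and −log10 p and −log10 q values, which describe peaks within a list only.

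The members and the sets beside them were chosen with earlier results of these data known. Differences subtract the rESC value from the R_NSCP1 value after log2(FPKM + 0.1). Starts are the first base on the plus strand and the last on the minus strand; an overlap of 1 bp counted, and coordinates are 1-based. Shares carry 95% Wilson intervals. lncRNAs named by position include the 10 highest, the 8 with the largest ratios above 0, the 5 longest and those with a peak at the start. Some of the groups, some transcripts nearest the limits of the rule and the members on chromosome 18 are named too. Others are said to be chosen after seeing values or are shown as examples of overlapping forms or of peaks. The 5 shortest are described as a set by their ranges. The ratio limit of the membership rule was checked on simulated FPKM values at the real positions. All simulated R_NSCP1 values lay above the floor and differences were set only in eligible transcripts, so the other conditions were not exercised. Counts of peaks inside the gained lncRNAs were checked against bedtools on the real peaks. Alternatives were the floor, ratio, scaling, zeros, repeated positions, pseudocount, distances and peak threshold. The software was pandas 2.3.3, numpy 2.4.6, scipy 1.17.1 and matplotlib 3.10.9 under Python 3.11.15.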

Additional observations from a re-analysis of the deposited data

How the results depend on the processing

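Of 133 values under other settings, 115 stayed and 18 moved. Staying meant within the 95% Wilson interval of a reported share, or within 1.5 times of a reported number or median span. For the median log2 difference it meant a shift of less than 1.5-fold, which is log2(1.5) on that scale. The sign of that difference could not change, since every setting kept R_NSCP1 above rESC for each gained lncRNA. With an R_NSCP1 floor of 5 there were 45 gained lncRNAs, of which 28.9% were listed at 0 in rESC, 11.1% overlapped a transcript of the strand, 2.22% had an R_NSCP1 peak at the start and 28.9% one in the body. With R_NSCP1 at least 2 times rESC, 28.0% were listed at 0 and the median log2 difference was 2.97; at 8 times, 52.7% were listed at 0. Without the transcripts listed at 0 in rESC 102 remained, with 19.6% within 100 kb of another, a median log2 difference of 3.01 (this value added after seeing the data) and 1.96% with an R_NSCP1 start peak. The median log2 difference was 6.05 with a pseudocount of 0.01 and 1.95 with 1. Within 500 kb of another lay 35.7%, and a window of 5000 bp raised the start shares to 14.6% in rESC and 19.3% in R_NSCP1. Leaving out places whose summed FPKM was not 4-fold higher, added after seeing the data, left 12.1% overlapping a transcript of the strand. Scaling by summed FPKM moved the median of all transcripts by 0.31 and gave 196 gained and 139 lost lncRNAs, with all 171 among the gained. The causes were not tested, apart from the changes in number that each setting makes by construction. Unknown depth limits what an FPKM of 0 or near 0 in rESC can show.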
